A study of Caenorhabditis elegans with 12 samples.

Results

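Small RNA reads were followed over the genes for the proteins of the cytosolic ribosome in Caenorhabditis elegans. The members were the WormBase gene identifiers WBGene00004412 to WBGene00004456, the block of large subunit (rpl) genes, and WBGene00004469 to WBGene00004499, the block of small subunit (rps) genes. All 76 members, 45 of the large and 31 of the small subunit, were among the 20134 identifiers of the count table, which also held 55259 genomic intervals. A filter on low counts left 75 members for testing, 44 large and 31 small. No source at hand paired identifiers with symbols, so members are named by identifier and no role is given to a single one.

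The ribosome is the particle that translates messenger RNA in every cell, and each of its subunits is built of ribosomal RNA and a set of ribosomal proteins. Ribosomal protein genes are among the most highly transcribed genes and are expressed in the germline and in the body alike. In worms, small RNAs made antisense to transcripts by RNA-dependent RNA polymerases are bound by Argonaute proteins. CSR-1 is the Argonaute of genes expressed in the germline, and WAGO-1 belongs to a group of Argonautes that act in silencing.

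The libraries held small RNA of whole animals staged at L4, the last larval stage, and grown at 15 °C. One strain carried 1xFLAG::CSR-1, and the other carried WAGO-1::FLAG P3G together with WAGO-3 P2G A3E, with residue numbers as in the labels. Each strain gave 3 input libraries of small RNA and 3 libraries after an immunoprecipitation (IP) with anti-FLAG, lettered A to C. The inputs and IPs of the first strain are called CSR-1 and those of the second WAGO-1 P3G. Bait, tag and genotype differed together between the strains and cannot be told apart, and no IP of unmodified WAGO-1 or from an untagged strain was analysed here. Input RNA was enriched for small RNA before sequencing and IP RNA was not. In a value of IP over input, the IP and that step cannot be told apart. The series title gives the question as how cleavage of Argonautes by a protease affects the small RNAs that they hold.

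Depth differed widely between inputs and IPs. Reads counted to identifiers or intervals ranged from 334088 to 533232 in an input library and from 2405005 to 9187525 in an IP library. The median member of either subunit thus had 6 to 18 counts in an input library and 62 to 228 in an IP library, so single members were measured far less precisely in the inputs. Reads on no feature made up 56.9% ± 2.81 of all reads in the inputs and 24.5% ± 4.06 in the IPs for CSR-1, and 73.3% ± 0.734 and 31.9% ± 0.309 for WAGO-1 P3G (SD, n = 3 each). Results that set these groups against each other can therefore depend on whether counted reads or all reads are the base, and values on both are given where a count or a direction changed. All reads here means the total of the count table, with its entries that name no feature. It need not hold every read sequenced. Among the CSR-1 IPs, library A differed from B and C more than they did from each other (chi-square per degree of freedom over features 8.02 and 6.89, against 1.52), and leaving it out changed no count of higher calls by over 1.5 times. Levels are in CPM, which scales counts to the same total of counted reads in every library, and are not corrected for gene length. The main fit further applied composition (TMM) factors. Their means were 1.16 and 0.861 in CSR-1 inputs and IPs, and 1.23 and 0.813 in WAGO-1 P3G inputs and IPs. Overlap of libraries was judged in CPM without these factors, so an overlap and a call of IP over input are on different scales. Strandedness of the counting is not given in the sources used here, so antisense small RNAs and sense fragments of the messenger RNA cannot be told apart in any of these values.

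Ribosomal protein genes took a small part of the counted reads in every group, and the largest part in the inputs of the WAGO-1 P3G strain. Large subunit members held 0.131%, 0.123% and 0.108% of counted reads in CSR-1 inputs A, B and C, and 0.302%, 0.270% and 0.276% in WAGO-1 P3G inputs A, B and C. They held 0.142%, 0.158% and 0.157% in CSR-1 IPs A, B and C, and 0.199%, 0.182% and 0.217% in WAGO-1 P3G IPs A, B and C. The 4 groups did not overlap. Both CSR-1 groups lay below both WAGO-1 P3G groups, with the input as the lowest group of CSR-1 and as the highest of WAGO-1 P3G. Small subunit members ran in the same order from lowest to highest, with 0.0698% ± 0.00761, 0.0915% ± 0.00624, 0.111% ± 0.0112 and 0.173% ± 0.00948 of counted reads (SD, n = 3 each), and again no groups overlapped. As shares of all reads the order was different. Large subunit members then held 0.0520% ± 0.00762 in CSR-1 inputs, 0.0755% ± 0.00582 in WAGO-1 P3G inputs, 0.115% ± 0.00143 in CSR-1 IPs and 0.136% ± 0.0123 in WAGO-1 P3G IPs (SD, n = 3 each), so that both IPs lay above both inputs.

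**Figure D1:**
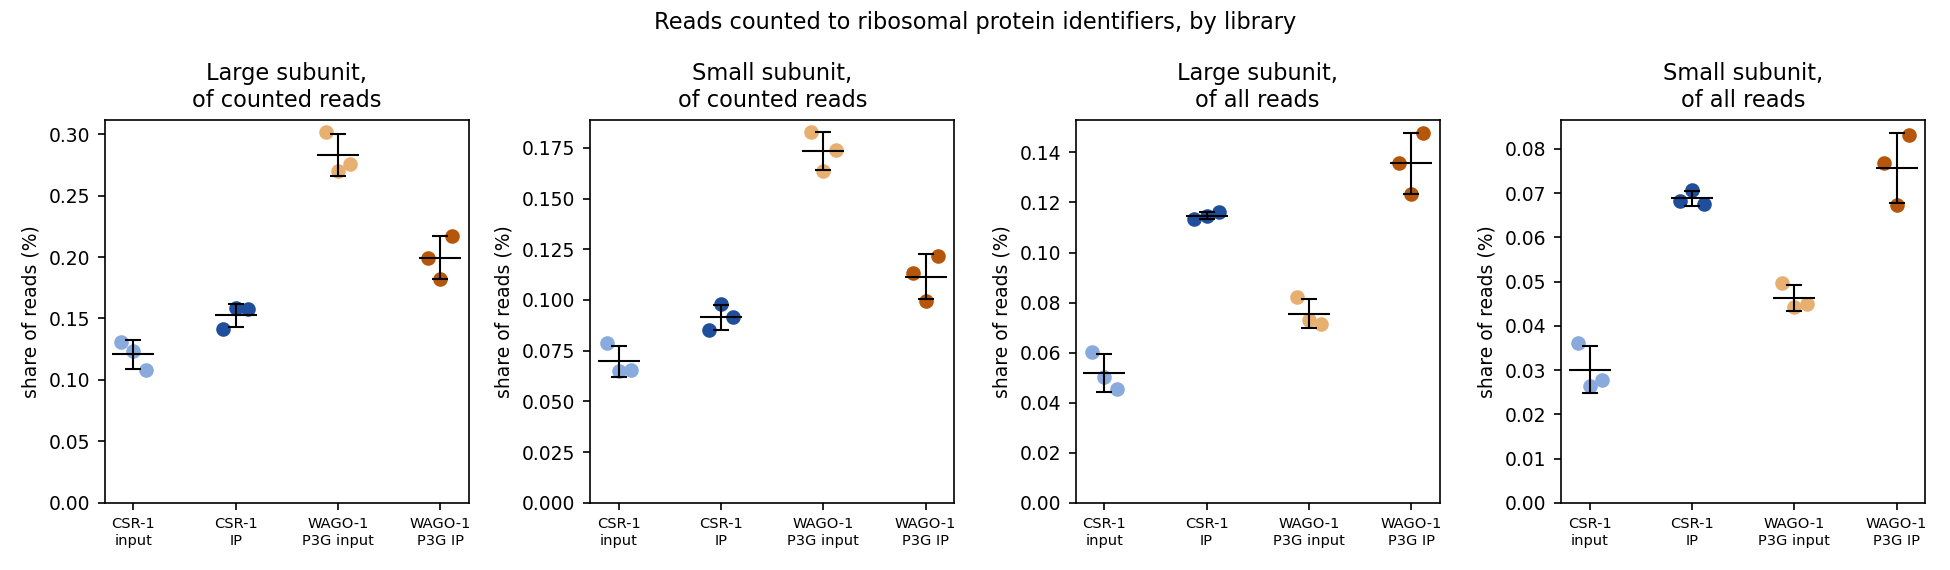
Share of reads on large subunit (45) and small subunit (31) ribosomal protein identifiers in each library, in percent of counted reads (left pair) and of all reads (right pair). Points are libraries A to C and bars are mean ± SD (n = 3); the WAGO-1 P3G inputs are the highest group of counted reads but lie below both IPs as a share of all reads.

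The subunits kept nearly the same proportion to each other throughout. Reads on large subunit members were 1.63 to 1.79 times those on small subunit members in the means of the 4 groups. The median levels of the subunits, as log2(CPM + 1), followed each other across the libraries (Pearson r = 0.964, Spearman rho = 0.937, n = 12). That correlation is a description, since both medians share the library and its depth and the libraries fall into 4 groups.

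Which group held a single member's highest level depended on the base. In CPM of counted reads, 33 of 45 large and 22 of 31 small subunit members had their highest group mean in the WAGO-1 P3G inputs, as did 24.1% of all tested features and 25.7% of tested identifiers. As shares of all reads, a base added after these values were seen, 0 members of either subunit did, beside 10.2% of all tested features and 11.2% of tested identifiers. On that base 25 large and 17 small subunit members (55.6% and 54.8%) were highest in the CSR-1 IPs, beside 42.2% of all tested features and 47.1% of tested identifiers. In the WAGO-1 P3G IPs 19 and 13 (42.2% and 41.9%) were highest, beside 34.5% of all tested features and 32.4% of tested identifiers. Of counted reads, the median member stood at 20.5 CPM ± 1.74 in the large and 18.4 CPM ± 3.34 in the small subunit in CSR-1 inputs, and at 47.6 CPM ± 2.57 and 47.6 CPM ± 5.53 in WAGO-1 P3G inputs (SD, n = 3). The median of all tested identifiers was 26.7 CPM ± 0.461 and 31.1 CPM ± 1.22 in the same groups, so the ribosomal protein median lay below it in the CSR-1 inputs and above it in the WAGO-1 P3G inputs. In the IPs the median large subunit member stood at 26.1 CPM ± 2.20 for CSR-1 and 20.2 CPM ± 0.725 for WAGO-1 P3G, beside 24.7 CPM ± 1.18 and 15.7 CPM ± 0.0654 for all tested identifiers. The reads were least evenly spread over the members in the WAGO-1 P3G IPs. The 3 members with the most reads made up 38.5% of the large subunit's CPM and 35.9% of the small subunit's there, against at most 25.9% in the other 3 groups.

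**Figure D2:**
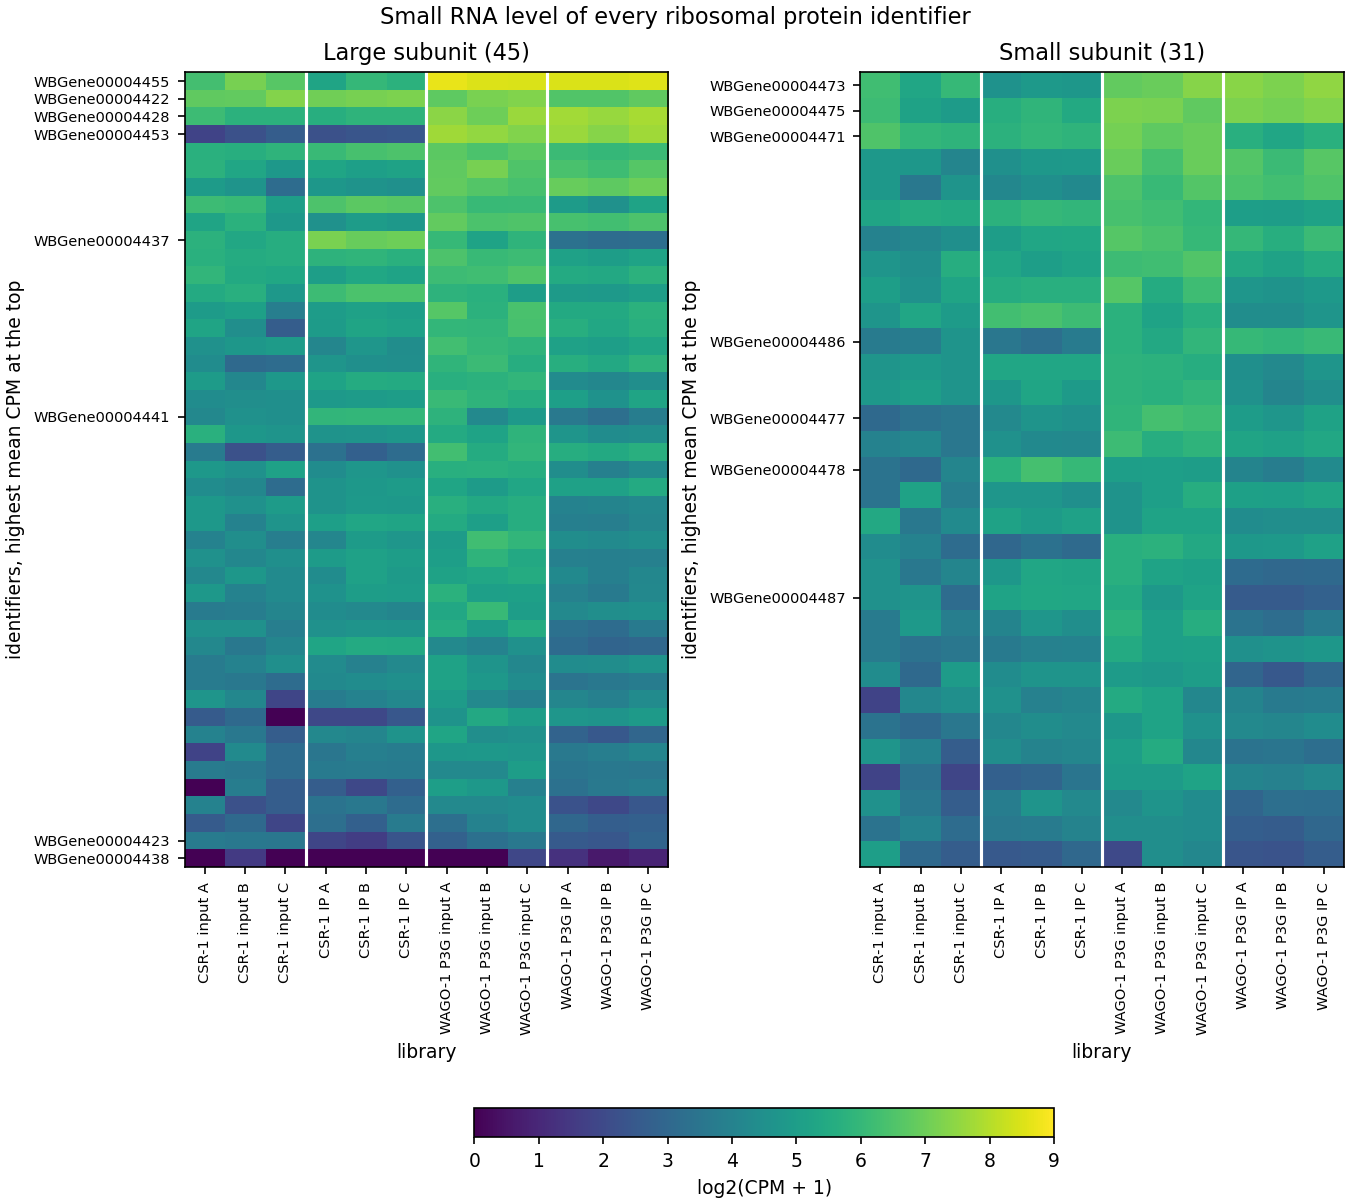
Level of all 45 large and 31 small subunit identifiers in each of the 12 libraries as log2(CPM + 1), ordered by mean CPM. Labels mark the members whose values the text gives, apart from WBGene00004482, and 3 others of high mean CPM. The WAGO-1 P3G input columns are the brightest for most members, and in the WAGO-1 P3G IP columns a few members at the top stay bright while many lower ones darken.

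WBGene00004438, of the large subunit, was the 1 member not tested. It had 0, 1 and 0 counts in the CSR-1 inputs, 0 in each CSR-1 IP, 0, 0 and 1 in the WAGO-1 P3G inputs, and 12, 4 and 8 in the WAGO-1 P3G IPs. Its only counts above 1 were thus in the WAGO-1 P3G IPs, the deepest libraries. A count of 0 in the 10743112 counted reads of the CSR-1 IPs allows up to 0.279 CPM, counting error only.

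Before any IP, small RNAs on ribosomal protein genes were higher in the strain with the WAGO changes. Setting WAGO-1 P3G inputs over CSR-1 inputs, 26 of 44 large subunit members and 21 of 31 small subunit members were called higher and 0 lower. Among all 10822 tested features 19.7% were called higher and 18.7% lower, and among the 9536 tested identifiers 21.2% and 15.5%. A call is a Benjamini-Hochberg adjusted p under 0.05 over all tested features in edgeR's quasi-likelihood fit of the 12 libraries. The median log2 fold change was 1.13 over the large and 1.15 over the small subunit, against 0.03 over all features and 0.09 over identifiers. Of the tested members, 43 of 44 and 30 of 31 had a log2 above 0, and for 34 and 23 every WAGO-1 P3G input lay above every CSR-1 input in CPM (27.3% of all features did). At an unadjusted p under 0.05, 0 members of either subunit were lower, and DESeq2 also called 0 lower. Since the labels do not say that libraries came from separate cultures, p-values cover the spread between them only, which may be technical. In animals taken whole, more small RNA per cell and more of the cells that make it cannot be told apart.

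Of counted reads, the members' share in WAGO-1 P3G inputs was 2.34 times that in CSR-1 inputs for the large and 2.49 times for the small subunit. As shares of all reads these ratios were 1.45 and 1.54, still without overlap between the groups. Scaled to all reads, 12 large and 10 small subunit members were called higher and 1 and 0 lower, and their median log2 values were 0.54 and 0.56, while the median of all features moved to -0.56 and 8.43% of all features were called higher and 37.7% lower.

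WBGene00004453, of the large subunit, had the widest difference between strains. It measured 2.47, 3.75 and 5.36 CPM in the CSR-1 inputs A, B and C, which were 1, 2 and 2 counts, and 212, 186 and 158 CPM in the WAGO-1 P3G inputs. The CSR-1 IPs held 3.67, 4.16 and 4.37 CPM and the WAGO-1 P3G IPs 200, 162 and 210 CPM. All 6 libraries of the one strain thus lay far below all 6 of the other, before and after IP. The fitted log2 was 5.49 ± 0.34 (SE) between the inputs (edgeR adjusted p = 1.40e-12) and 5.64 ± 0.18 between the IPs (adjusted p = 4.36e-20). By counts scaled to counted reads, 190 against 5 counts in the inputs is a ratio of 48.4 (95% exact interval 20.4 to 151, counting error only). Within the CSR-1 strain its log2 of IP over input was 0.50 ± 0.58, which was not called. With WAGO-1 P3G it was 0.64 ± 0.14 and called higher (edgeR adjusted p = 0.000328), although the libraries overlapped in CPM, and it became 0.05, not called, when scaled to counted reads. The difference of enrichments was 0.14 ± 0.66 (edgeR adjusted p = 0.850), and -0.010 when scaled to counted reads.

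In the small subunit WBGene00004477 had the largest rise between the inputs. It measured 7.41, 9.38 and 10.7 CPM in CSR-1 inputs and 58.8, 80.8 and 70.4 CPM in WAGO-1 P3G inputs, with no overlap (log2 2.84 ± 0.36 SE, edgeR adjusted p = 5.78e-07). In the IPs the levels drew closer, at 17.7, 24.1 and 21.9 CPM for CSR-1 and 30.7, 25.8 and 35.3 CPM for WAGO-1 P3G. The log2 there was 0.64 ± 0.16, still called. Not every member took part. WBGene00004422, of the large subunit, had 111, 113 and 158 CPM in the CSR-1 inputs and 109, 144 and 155 CPM in the WAGO-1 P3G inputs, which overlapped (log2 0.03 ± 0.19). When all reads were the base, it was the large subunit member called lower (log2 -0.57, edgeR adjusted p = 0.0142).

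The higher share of the large subunit in the WAGO-1 P3G inputs did not rest on its 2 members that differed most in CPM. Without WBGene00004453 and WBGene00004455 the other 43 held 0.226% ± 0.0125 of counted reads in the inputs of WAGO-1 P3G, 2.06 times their mean share in those of CSR-1. The IPs held 0.144% ± 0.0136 for WAGO-1 P3G and 0.147% ± 0.00804 for CSR-1 (SD, n = 3 each). The IPs then differed by less than the spread between replicates.

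**Figure D3:**
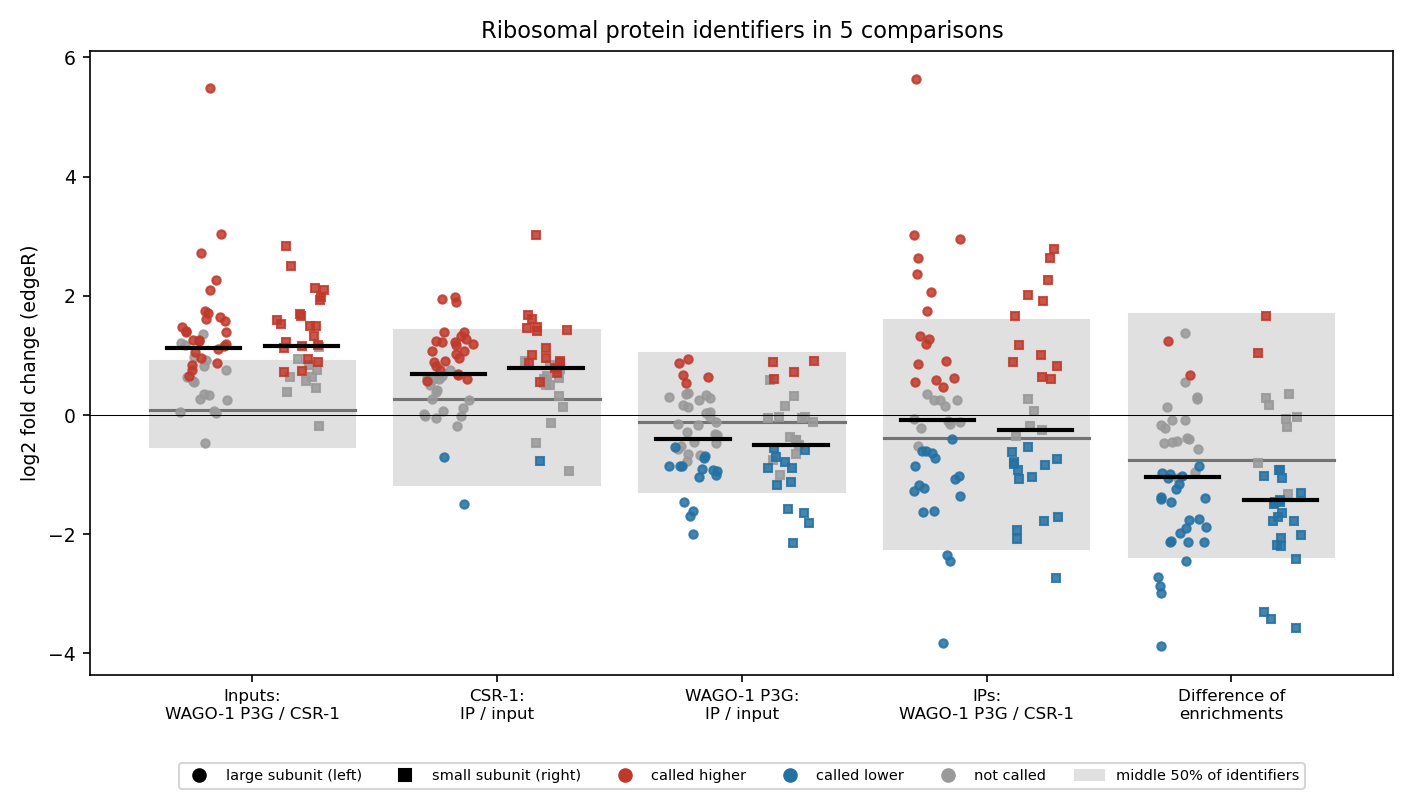
Fitted log2 fold change of each tested ribosomal protein identifier (44 large, circles; 31 small, squares) in the 5 comparisons, coloured by call at an adjusted p under 0.05. Black bars are subunit medians, and grey boxes and lines are the middle 50% and the median of the 9536 tested identifiers; in the inputs both subunit medians (1.13 and 1.15) lie above the grey box.

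In the IPs the strain difference was no longer in 1 direction. Setting WAGO-1 P3G IP over CSR-1 IP, 16 large and 12 small subunit members were called higher, and 17 and 14 lower. Background shares were 42.3% higher and 44.5% lower over all features, and 38% and 48.6% over identifiers, so the members were called in each direction about as often as other features. The medians, -0.09 for the large and -0.24 for the small subunit, lay close to the -0.09 of all features, and that of identifiers was -0.39. Both took either sign over the alternatives that kept all libraries (-0.33 to 0.24 and -0.48 to 0.076), and without a library they ran from 0.0047 to 0.51 and from -0.15 to 0.24, with both upper ends reached without WAGO-1 P3G IP B. Members spread from a log2 of -3.82 to 5.64. The count of lower calls in the large subunit went from 17 to 10, 10 and 11 without WAGO-1 P3G IP A, B or C, and in the small subunit from 14 to 7 and 6 without A or B. In each of these fits the filter left 40 large subunit members tested, against 44 in the main fit.

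Members that differed more between the inputs also tended to be higher in the WAGO-1 P3G IPs. These comparisons share no library. Across the 75 members their log2 values had a Pearson r of 0.685 and a Spearman rho of 0.627, and without the most distant member an r of 0.600 (n = 74). Over the 9536 tested identifiers the same values were 0.311 and 0.338. Members are not independent replicates, so these are descriptions, and no test of the difference was made. Of the 47 members higher in the WAGO-1 P3G inputs, 26 (55.3%) were also higher in the IPs, 14 (29.8%) were lower and 7 were not called. Among all tested identifiers called higher in the inputs, 57.4% were higher and 24.1% lower in the IPs, which is close to the members' shares.

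**Figure D4:**
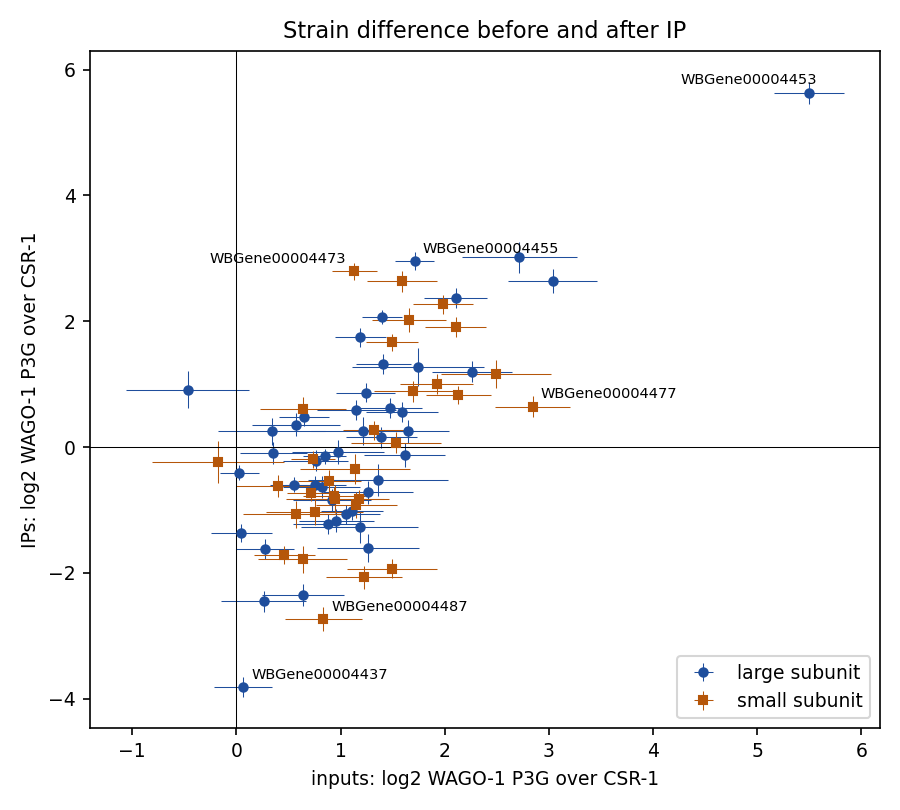
Fitted log2 of WAGO-1 P3G over CSR-1 for each of the 75 tested members, between the inputs (horizontal) and between the IPs (vertical), with bars of 1 SE. Nearly all points lie right of 0, and they spread to both sides of 0 vertically, from WBGene00004453 at the top right (5.49 and 5.64) to WBGene00004437 at the bottom (0.06 and -3.82).

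IP over input with CSR-1 was modest and mostly upward. A member is called enriched where its IPs were called higher than its inputs, which also differed in the step that enriched small RNA. Over the CSR-1 inputs, 24 of 44 large and 16 of 31 small subunit members were called higher in the CSR-1 IPs, and 2 and 1 lower. Among all features 37.5% were called higher and 33.6% lower, and among identifiers 42.1% and 28%. The medians were 0.68 and 0.78 on the log2 scale, against -0.08 over all features and 0.27 over identifiers. Counts depended on the scaling, while both medians stayed above 0 under every alternative (0.24 to 1.13 and 0.35 to 1.24). Scaled to counted reads alone, where the median of all features was -0.52, 12 large and 10 small subunit members were called higher, as were 30.2% of all features. Scaled to all reads these counts were 32 and 27, beside 43.2% of all features. The large subunit count became 13 without CSR-1 IP C and 15 without WAGO-1 P3G IP A, B or C, and the small subunit count became 10 without any 1 of those 3. Without any 1 IP library the filter left 40 large subunit members tested, not 44, and still 31 small. These counts thus differ from the main ones in the features tested as well as in the library left out. Without CSR-1 IP A, which stood apart, 18 large and 11 small subunit members were called higher. The 2 lower calls of the large subunit became 0 without CSR-1 input B and 1 without CSR-1 input A, any CSR-1 IP or any WAGO-1 P3G IP. The 1 of the small subunit became 0 without CSR-1 input A or C and 2 without CSR-1 IP C or any WAGO-1 P3G IP.

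The members most enriched with CSR-1 were WBGene00004478 in the small and WBGene00004441 in the large subunit. WBGene00004478 measured 9.88, 7.50 and 16.1 CPM in CSR-1 inputs and 53.4, 80.2 and 64.4 CPM in CSR-1 IPs (log2 3.01 ± 0.30 SE, edgeR adjusted p = 2.37e-09). In the other strain it measured 32.4, 32.9 and 31.0 CPM in the inputs and 15.5, 13.1 and 18.9 CPM in the IPs. Its libraries did not overlap in either strain and the directions in CPM were opposite, but the fitted log2 of -0.41 ± 0.28 with WAGO-1 P3G was not called. That log2 was -1.01 and called when scaled to counted reads (edgeR adjusted p = 0.00824), and 0.34 and not called when scaled to all reads. WBGene00004441 went from 17.3, 22.5 and 21.4 CPM to 60.3, 61.1 and 60.6 CPM with CSR-1 (log2 1.98 ± 0.28 SE, adjusted p = 8.88e-07), again without overlap.

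Depletion from the CSR-1 IPs was rare among members. WBGene00004423, of the large subunit, measured 12.4, 11.3 and 10.7 CPM in the inputs and 2.65, 2.08 and 4.08 CPM in the CSR-1 IPs (log2 -1.50 ± 0.48 SE, edgeR adjusted p = 0.00768). The call was lost without CSR-1 input A or B and without the filter on low counts. WBGene00004473, of the small subunit, had 74.1, 39.4 and 64.3 CPM in the inputs and 22.8, 27.9 and 25.9 CPM in the CSR-1 IPs (log2 -0.76 ± 0.21 SE, adjusted p = 0.00257). That call was lost without CSR-1 input A or C, without the filter and when all reads were the base. WBGene00004455, of the large subunit, was the other member called lower (log2 -0.71 ± 0.19 SE, adjusted p = 0.00177), and its call was lost without CSR-1 input B, without the filter and when all reads were the base. The log2 was negative for WBGene00004473 and WBGene00004455 in all 20 alternatives and for WBGene00004423 in the 14 in which it was tested, since it did not pass the filter when any 1 of the 6 IP libraries was left out.

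The direction of the members in the WAGO-1 P3G IPs depended on the base of the scaling. With the composition factors of the main analysis, 15 large and 12 small subunit members were called lower than in their inputs, and 5 and 4 higher. Over all features 33.4% were called lower and 34.1% higher, and over identifiers 37% and 31.3%. The members' shares called lower, 34.1% of the large and 38.7% of the small subunit, were close to these. Their shares called higher, 11.4% and 12.9%, were below them. The medians were -0.40 and -0.49, against 0.12 over all features and -0.12 over identifiers. They were 0.36 and 0.26 when scaled to all reads (all features 0.87) and -0.99 and -1.09 when scaled to counted reads (all features -0.48). Scaled to all reads, 19 large and 12 small subunit members were called higher and 4 and 4 lower, where 52% of all features were higher and 20.3% lower. Scaled to counted reads, 1 and 0 were higher and 31 and 22 lower, where 17.6% of all features were higher and 43.6% lower. In CPM, all 3 IPs lay below all 3 inputs for 29 large and 23 small subunit members, as they did for 46.3% of all features. Leaving out a library of the inputs also moved the counts: the large subunit's 15 lower calls became 6, 7 and 5 without WAGO-1 P3G input A, B or C and 8 and 9 without CSR-1 input B or C, and the small subunit's 12 became 4, 6 and 6 without WAGO-1 P3G input A, B or C. The large subunit's 5 higher calls became 10, 10 and 11 without CSR-1 input A, B or C, and 9 and 10 without input A or B of WAGO-1 P3G. The small subunit's 4 became 7 without any 1 CSR-1 input. All features moved as well. Their median went from 0.12 to 0.53 without WAGO-1 P3G input A and to 0.48 without CSR-1 input A, which is not in this comparison. The large subunit's median went from -0.40 to -0.020 and -0.086, and so stayed below that of all features. Shares of all features called in these fits are not given.

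Some single members were lower on every base. WBGene00004437, of the large subunit, measured 64.7, 35.9 and 56.3 CPM in WAGO-1 P3G inputs and 9.36, 8.10 and 8.60 CPM in WAGO-1 P3G IPs (log2 -1.99 ± 0.26 SE, edgeR adjusted p = 3.12e-07). WBGene00004487, of the small subunit, had 44.1, 26.9 and 36.6 CPM in the inputs and 5.04, 5.00 and 5.99 CPM in the IPs (log2 -2.14 ± 0.31 SE, adjusted p = 2.10e-06). In both members the IPs lay far under every input. Their log2 stayed below 0, and called, in all 20 alternatives, between -2.59 and -1.24 for the first and -2.74 and -1.39 for the second. WBGene00004486, of the small subunit, was the 1 member called higher whose libraries did not overlap in CPM (24.7% of all features were), with 53.0, 41.9 and 59.2 CPM in the inputs and 64.2, 59.2 and 68.1 CPM in the IPs, so that the highest input and the lowest IP nearly touched. Its log2 of 0.91 ± 0.21 SE (edgeR adjusted p = 0.000482) became 0.31 (adjusted p = 0.199) when scaled to counted reads. No large subunit member was called higher without overlap in CPM. That scale leaves out the composition factors of the fit, which raised the log2 of IP over input.

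The difference of enrichments, the log2 of IP over input for WAGO-1 P3G minus that for CSR-1, was mostly below 0. It was called lower for 25 large and 21 small subunit members and higher for 2 and 2, where 40% of all features were lower and 33.9% higher, and 44.6% and 28.2% of identifiers. The medians were -1.04 and -1.42, beside -0.34 over all features and -0.76 over identifiers, and both stayed below 0 in every alternative (-1.20 to -0.57 and -1.59 to -0.92). Without CSR-1 input C the 2 higher calls of the small subunit became 1. In joint terms, 40 members were enriched with CSR-1, and of these 19 were lower and 2 higher in the WAGO-1 P3G IPs than in their inputs. Those 19 are 47.5% of the 40, close to the 50.8% among all identifiers enriched with CSR-1. The 2 higher are 5.0%, beside 12.1% among those identifiers. These joint counts are of the main fit. Scaled to all reads, fewer members than these 19 were called lower with WAGO-1 P3G, as given above.

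WBGene00004437 and WBGene00004487 also had the lowest differences of enrichments in their subunits. WBGene00004437 rose from 54.3, 41.3 and 48.3 CPM in CSR-1 inputs to 145, 119 and 127 CPM in CSR-1 IPs, the reverse of its course with WAGO-1 P3G (difference -3.88 ± 0.33 SE, edgeR adjusted p = 1.35e-10). The inputs of the strains overlapped, at a log2 of 0.06 that was not called and became -0.54, also not called, when all reads were the base, while the IPs differed by -3.82 ± 0.16. WBGene00004487 measured 22.2, 24.4 and 8.04 CPM in CSR-1 inputs and 36.3, 40.3 and 38.8 CPM in CSR-1 IPs, with the IPs above every input (difference -3.57 ± 0.42 SE, adjusted p = 4.37e-08).

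The opposite pattern was called in few members. Among those called higher, the largest difference in each subunit was that of the member with the highest mean CPM. WBGene00004455, of the large subunit, had 79.0, 143 and 99.2 CPM in CSR-1 inputs and 37.1, 62.8 and 54.2 CPM in CSR-1 IPs. The WAGO-1 P3G strain held 415, 368 and 358 CPM before and 361, 356 and 381 CPM after IP. CSR-1 IPs were below their inputs without overlap, and the WAGO-1 P3G inputs and IPs overlapped in CPM. The fit, which also applied the composition factors, called the WAGO-1 P3G IPs higher (log2 0.54 ± 0.14 SE, edgeR adjusted p = 0.00184). That log2 became -0.058, not called, when scaled to counted reads. The difference was 1.25 ± 0.24 SE (edgeR adjusted p = 4.66e-05). WBGene00004473, with the CSR-1 values given above, had 115, 123 and 163 CPM in WAGO-1 P3G inputs and 168, 147 and 179 CPM in WAGO-1 P3G IPs, which overlapped in CPM (difference 1.66 ± 0.27 SE, edgeR adjusted p = 5.29e-06). The fit called its WAGO-1 P3G IPs higher too (log2 0.90 ± 0.16 SE, edgeR adjusted p = 2.32e-05), which became 0.30 (adjusted p = 0.115) when scaled to counted reads. Both differences stayed called in all 19 alternatives.

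**Figure D5:**
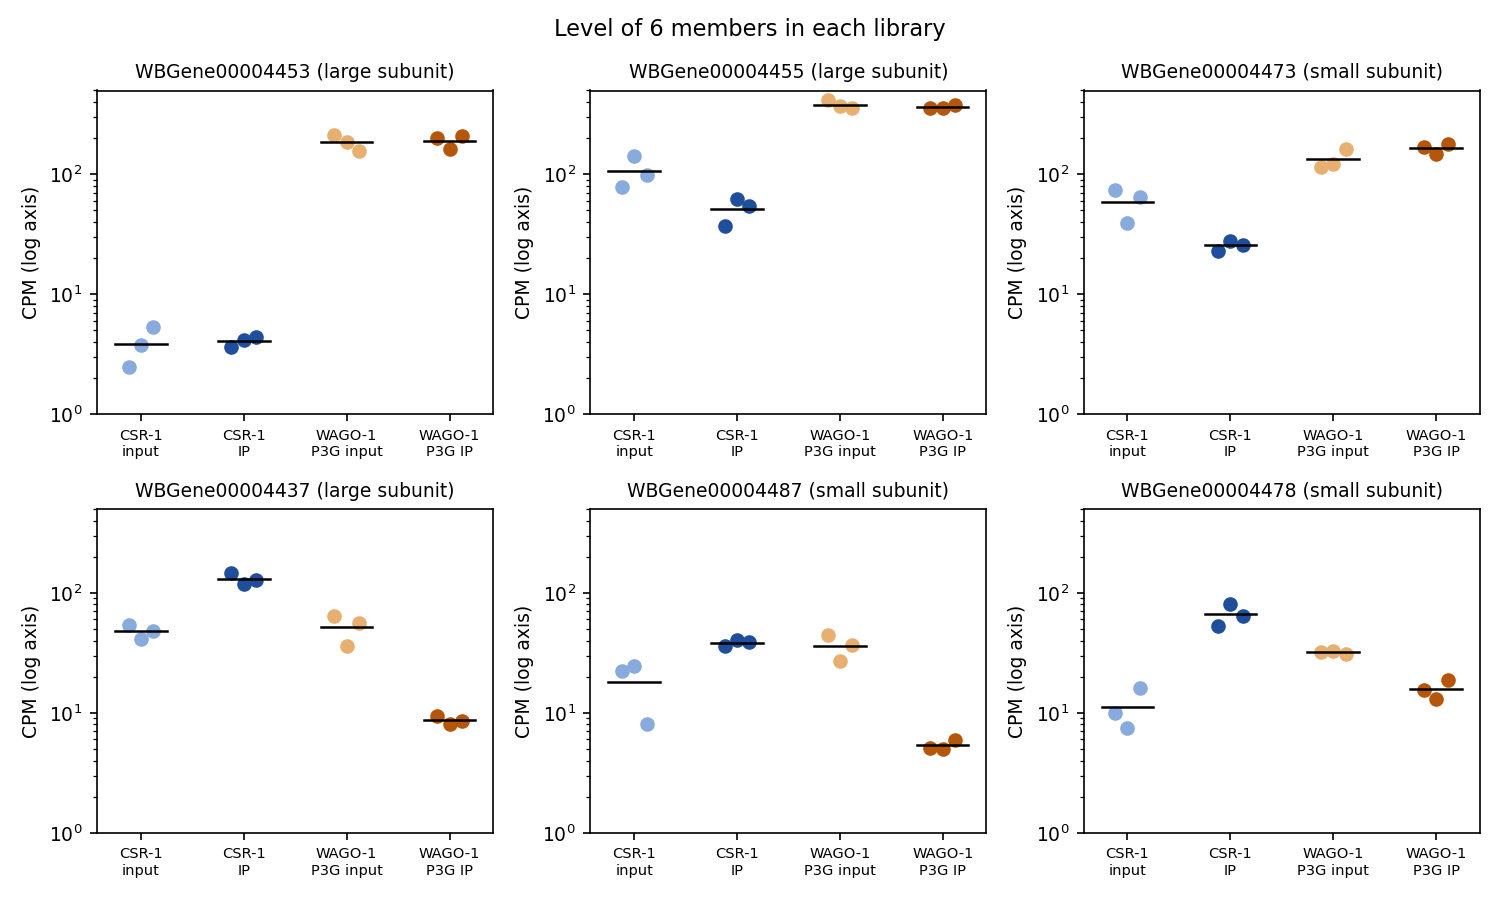
CPM of 6 members in each library, on a log axis, with a line at each group mean (n = 3). WBGene00004453 is low in all 6 CSR-1 strain libraries and high in all 6 of the WAGO-1 P3G strain, WBGene00004437, WBGene00004487 and WBGene00004478 have IPs above inputs for CSR-1 and below them for WAGO-1 P3G, and WBGene00004455 and WBGene00004473 have IPs below inputs for CSR-1.

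Over the 5 comparisons together, 12 of the 75 tested members were called in each one, 6 of either subunit, and 6 in none, 5 large and 1 small. Of all features 17.9% were called in each one and 2.26% in none, and of identifiers 16.6% and 2.45%. The untested WBGene00004438 apart, WBGene00004423 followed its subunit least, with a Pearson r of 0.10 to the subunit's median log2(CPM + 1) over the 12 libraries. In the small subunit this was WBGene00004482 at 0.20, whose CSR-1 inputs were uneven at 32.1, 7.50 and 5.36 CPM. Correlations of this kind include the counting error of low counts.

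Intervals of the count table added little. Of 85 RefSeq genes with a ribosomal protein symbol only rpl-42, a large subunit gene, overlapped any, and 1 of its 2 intervals was tested. That interval lies on chromosome II, 11093909 to 11094021 on the plus strand (build ce11), 113 bases at the end of the gene's span of 11092713 to 11094022 in WBcel235. It measured 19.8, 39.4 and 37.5 CPM in CSR-1 inputs and 5.91, 5.82 and 11.7 CPM in CSR-1 IPs, and in the WAGO-1 P3G strain 76.5, 59.9 and 76.1 CPM before and 161, 173 and 156 CPM after IP. Its inputs were higher in the WAGO-1 P3G strain, as for most members (log2 1.03 ± 0.30 SE, edgeR adjusted p = 0.00815). In the IPs it went down with CSR-1 and up with WAGO-1 P3G, a difference of enrichments of 3.44 ± 0.38 SE, where most members had one below 0. The annotation behind the intervals is not given in the sources used here, so its reads need not come from rpl-42.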

How the data were processed

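Raw counts per feature were deposited by the authors as 1 table of 12 libraries, with no normalization. The submitters' processing notes name cutadapt 2.3, Bowtie 1.2.3, SAMtools 1.9, HTSeq 0.11.2 and ce11, without saying what each was used for. No source used here gives the strand setting, the annotation or how reads with several alignments were treated, and the table's entry for reads without a unique alignment is 0. Ribosomal protein genes with near-identical copies are therefore uncertain. Per the labels' protocols, 500 ng of total RNA per input was enriched for small RNA, which was not done for IPs. All RNA was treated with a 5′ polyphosphatase and sequenced over 50 single-end cycles. Groups follow the titles, which match the sample names and antibody fields. The description of some samples opens with wording that fits the opposite fraction.

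Entries that name no feature were left out of library sizes and tests. After filterByExpr on the groups and TMM scaling, quasi-likelihood F tests were run in edgeR 4.0.16 (R 4.3.3) on all 12 libraries, with 1 mean for each of the 4 groups (8 residual degrees of freedom), with Benjamini-Hochberg adjustment over 10822 features, of which 1286 were intervals. The SE is the size of the log2 divided by the square root of F, an approximation. The members, lists and tests were chosen with earlier results of these data known. Named members have the largest and smallest called log2 per subunit and comparison without overlap of the libraries, or the highest mean CPM. For the difference of enrichments, overlap was judged otherwise. There it was that of the log2 of IP over input between libraries of the same letter, with TMM factors and a prior count of 2. The rule allowed 2 each way and was held to 1, since 0 identifiers could be paired with symbols. Paralogue groups and comparison lists, which need symbols, were not used. WBGene00004422, WBGene00004438, WBGene00004423 and WBGene00004482 serve as the cases the text states.

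On simulated counts for 10822 features, changes of 2-fold and 4-fold were recovered in 35% and 72% of cases between the inputs, 42% and 86% for CSR-1 IP over input, 51% and 85% for WAGO-1 P3G IP over input, 82% and 96% between the IPs, and 19% and 76% for the difference. The simulation gave all features 1 common spread and each 1 level in all groups, apart from 100 features changed 2-fold and 100 changed 4-fold. In the data far more features were called, so these rates need not hold there. No replicate was counted as a repeat of another. The chi-square per degree of freedom between replicates of a group ran from 1.09 to 8.02. It was 1.09, 1.14 and 1.16 among the WAGO-1 P3G inputs and 1.14 for CSR-1 inputs B and C, near sampling noise. At the low counts of the inputs it cannot tell a technical repeat from a separate sample. The alternatives tried were DESeq2 1.42.0, median-of-ratios factors, totals of counted or all reads, identifiers alone, no filter, only the groups compared, replicate letter as a block, and leaving out each library.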

Additional observations from a re-analysis of the deposited data

Results flagged for a closer look

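Single ribosomal protein genes were called for a difference in enrichment between the strains, each by a test of the difference itself, the contrast of the log2 of IP over input in edgeR's fit. The log2 was called lower with WAGO-1 P3G than with CSR-1 for 25 of 44 large and 21 of 31 small subunit members and higher for 2 and 2, and the other 17 and 8 were not called. Of all features 40% were lower and 33.9% higher, and of tested identifiers 44.6% and 28.2%. No test was made of the genes as a group or of these shares. Among single members the log2 difference was 1.25 for WBGene00004455 and 1.66 for WBGene00004473, the members of highest mean CPM in their subunits. It was -3.88 for WBGene00004437 and -3.57 for WBGene00004487. Each of these 4 was called in all 19 alternatives. The strains' inputs differed for most members too, and bait, tag and genotype cannot be told apart.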

How the results depend on the processing

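Of 20 counts of calls, those of the inputs were within 1.5 times of the values reported under all alternatives except all-reads totals (12 large and 10 small subunit members higher, 1 large lower). With CSR-1, 24 large higher calls became 12 on counted totals, 15 with identifiers alone and 12 with only the groups compared, and 13 to 27 without a library. The 16 small higher calls became 10 on counted totals, 27 on all reads and 10 with only the groups compared (10 to 21 without a library). The 2 large lower calls became 1 on all reads and 0 unfiltered (0 to 2), and the 1 small lower call 3 on counted totals, 0 on all reads and unfiltered, 2 with only the groups compared and 2 with the replicate block (0 to 2). With WAGO-1 P3G, counted totals, all reads and no filter gave 1, 19 and 13 large higher and 31, 4 and 3 large lower. They gave 0, 12 and 7 small higher and 22, 4 and 4 small lower. Without a library these counts ran 5 to 11, 5 to 14, 4 to 7 and 4 to 12. All features moved too in this comparison. Unfiltered, their median log2 was 1.09, above the members' 0.20 (large) and 0.052 (small), and without a library it ran from -0.010 to 0.53. Between the IPs, lower calls ran 10 to 17 (large) and 6 to 14 (small) without a library. Some alternatives also tested fewer members than the main fit. Without any 1 IP library 40 large subunit members were tested. With only the groups compared, 41 large and 30 small were tested with CSR-1, and 31 and 24 between the inputs. For the difference, 2 large higher calls became 4 with median-of-ratios factors, all reads, identifiers alone or DESeq2 and 1 on counted totals, and 2 small higher calls became 1 unfiltered and 1 to 2 without a library. The members highest in the WAGO-1 P3G inputs, 33 large and 22 small, became 0 and 0 on all reads, a base added after seeing the data. Of 30 named log2 values, 25 kept their sign. That of WBGene00004422 between the inputs (0.03) became -0.57 on all reads, -0.045 with identifiers alone and -0.11 to 0.14 without a library, and that of WBGene00004437 (0.06) became -0.54, -0.013 and -0.16 to 0.21. On counted totals the difference of WBGene00004453 became -0.010 and the WAGO-1 P3G enrichment of WBGene00004455 became -0.058. For WBGene00004478 that enrichment (-0.41) became 0.34 on all reads and 0.13 unfiltered. Calls were lost as given for WBGene00004423, WBGene00004455 and WBGene00004473 with CSR-1 and for WBGene00004453, WBGene00004455, WBGene00004473 and WBGene00004486 with WAGO-1 P3G, and that of WBGene00004473 between the inputs on all reads (0.53, edgeR adjusted p = 0.0660). The cause of these shifts was not tested.

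Letters A to C were not taken to pair the libraries in the main fit, because not every same-letter correlation of deviations was over 0.1 (0.313, 0.203 and 0.039 for CSR-1, 0.021, 0.001 and -0.009 for WAGO-1 P3G). The titles give inputs and IPs of a strain the same letters, and low input counts can hide such a correlation. The check therefore cannot exclude pairing. Letters did enter the naming of members by the difference of enrichments. CSR-1 inputs A and B correlated best with the IP of their own letter and C with IP B (0.079), a hint from the data and not the design. With the letter as a block the only count moved by over 1.5 times was the one above. Depth limited the inputs, where the median member had 6 to 18 counts.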
